A study of Mus musculus with 33 samples.

Results

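Mouse embryonic stem cells were compared with the same cells after 4 days in retinoic acid, by RNA sequencing of poly(A) libraries. The comparison used 6 of the 33 libraries of the series, 3 of stem cells (mES) and 3 of treated cells (RA-4d), chosen by their labels. Genes entered with an FPKM (fragments mapped to a gene, corrected for its transcript length and the library total) of at least 1 in at least 3 of these 6 libraries, which left 13617 of 52631 listed genes. Both groups carry the strain label 129S2/SvPas. The mES cells, labelled day 0, grew on a layer of mitomycin-treated embryonic fibroblasts in medium with 15% serum and LIF at 1000 U/mL. The RA-4d cells were replated on gelatin in medium with 15% serum and all-trans retinoic acid at 10 µM, for which no LIF is listed, and their labels call them smooth muscle-like. The groups thus differ in retinoic acid, LIF, feeder cells, substrate and time in culture, and these cannot be told apart. The labels do not say whether replicates are separate cultures, so p-values may measure technical spread alone.

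Mouse stem cells in serum keep their state through a set of transcription factors around Oct4, Sox2 and Nanog, held up by LIF, which acts through the kinase JAK and the factor STAT3. Leaving that state involves loss of the naive factors and, in the embryo, a passage through a formative and then a primed state before lineages part. Retinoic acid enters the nucleus, binds receptors of the RAR family that pair with RXR, and turns on genes next to paired binding motifs, among them Hox genes and the enzymes that degrade retinoic acid itself.

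The 6 libraries separated cleanly by group. Each library held 12980 to 13037 genes at 1 FPKM or above. Across tested genes, the mean Pearson correlation of log2(FPKM + 1) was 0.980 to 0.988 between libraries of 1 group and 0.831 to 0.833 between groups. The file holds no counts, so the depth behind a value is unknown, beyond a stated aim of about 25M reads of 150 bp. The mES libraries varied more than the RA-4d libraries, with a median SD per gene of 0.16 against 0.095 on the log2 scale. Library mES replicate 3 stood apart in particular: short transcripts were higher in it, and 1 gene, AL626808.1, made up 28.0% of its FPKM sum. Among protein-coding genes with transcripts of at most 500 bases, mES replicate 3 lay a median of 0.36 (log2) above the other 2 mES libraries, and among those over 5000 bases 0.10 below (-0.10). The RA-4d minus mES difference ran the opposite way with length. Its median rose from -0.62 at up to 500 bases (58 genes) to 0.097 above 5000 bases (2693 genes).

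A gene was called when limma's adjusted p was under 0.05 and its log2 fold change of FPKM + 1 was at least 1 in size. By this rule 3781 genes changed by day 4, 27.8% of those tested. They split evenly, with 1887 higher (13.9%) and 1894 lower (13.9%) in RA-4d. The 3 and 3 libraries did not overlap for 10041 genes (73.7%). Changes of at least 3 on the log2 scale numbered 162 higher and 154 lower. Ranked here were called genes with a group mean of 5 FPKM or more and no overlap between groups. Predicted genes, clone names, pseudogenes and genes sharing a symbol were passed over, which left out some larger falls. The 12 largest rises so ranked were dominated by the retinoid pathway and Hox loci, namely Cyp26a1, Hoxa5, Hotairm1, Hoxb5os, Cyp26b1, Rarb, Hoxb2, Dhrs3, Gas1, Meis2, Plat and Krt18. The 12 largest falls so ranked were Nanog, Mymx, Esrrb, Klf2, Utf1, Tdgf1, Etv4, Stmn2, Ndufa4l2, Fgf4, Trh and Tcf15, of which Nanog, Esrrb, Klf2, Utf1, Tdgf1 and Fgf4 are known stem cell genes. Of the others, the growth arrest gene Gas1 went from 1.35, 1.90 and 2.52 FPKM in mES to 125, 123 and 129 in RA-4d (5.46 ± 0.14). Mymx, known as a fusion peptide of muscle, went from 291, 258 and 375 to 1.38, 0.733 and 0.449 (-7.40 ± 0.21), and Trh, the gene of thyrotropin-releasing hormone, from 87.0, 80.9 and 93.9 to 0.750, 0.526 and 0.768 (-5.71 ± 0.10). Ndufa4l2, a mitochondrial gene known for its response to low oxygen, went from 76.7, 71.9 and 96.0 to 0, 0.725 and 0.319 (-5.96 ± 0.21). None of these 4 genes had overlapping groups, which the selection required. The retinoid enzymes and Hox loci among the rises, and the stem cell genes among the falls, were part of the lists chosen with earlier results of these data known. The plot of called members of each list sets all 32 lists beside the 13.9% that all genes give in each direction.

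**Figure D1:**
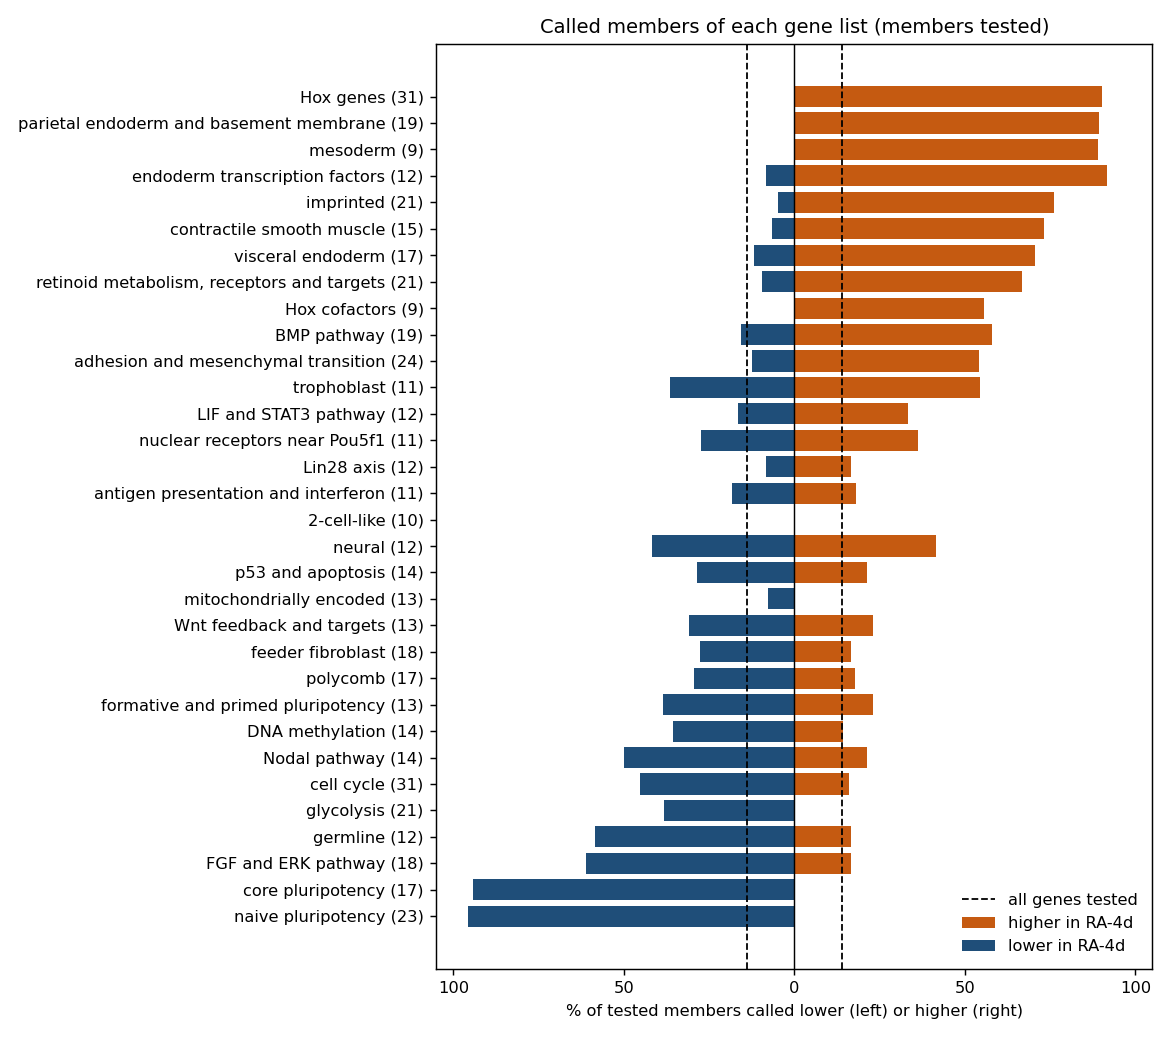
Share of the tested members of each gene list called higher (right, orange) or lower (left, blue) in RA-4d than in mES, in percent, with the number of tested members in parentheses. The dashed lines mark the 13.9% of all tested genes called in each direction: Hox, basement membrane and endoderm lists lie far to the right and the pluripotency lists far to the left.

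The pluripotency genes were down by day 4, and they differed widely in how much RNA was left. Of the core pluripotency genes 16 of 17 fell, with a median log2 fold change of -3.01, and of the naive genes 22 of 23 tested fell, with a median of -3.35, against a median of -0.08 over all genes. None rose. In bulk samples fewer cells of a type and less RNA per cell cannot be told apart, so these values do not say whether every cell lost the transcripts. Nanog (chromosome 6, 122707489 to 122714633, GRCm38), a homeodomain factor of the core, stood at 388, 378 and 363 FPKM in the mES libraries and 0.606, 0.638 and 0.589 in the RA-4d libraries. That is a log2 fold change of -7.87 ± 0.068 (adjusted p = 6e-09), and it left 0.162% of the mES level. The orphan nuclear receptor Esrrb fell from 218, 226 and 198 to 0.819, 0.884 and 1.04 (-6.81 ± 0.087), and the Kruppel-like factor Klf2 from 378, 348 and 523 to 2.94, 3.05 and 3.78 (-6.60 ± 0.16). The 3 mES and 3 RA-4d libraries lay far apart for each of these 3 genes, which were among the largest falls, chosen for no overlap. Sox2, which pairs with Oct4 on DNA, went from 213, 235 and 222 to 8.64, 7.27 and 8.22 (-4.63 ± 0.082), and the zinc finger gene Zfp42 (Rex1) from 454, 439 and 461 to 18.1, 19.9 and 18.8 (-4.50 ± 0.064).

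Pou5f1 (chromosome 17, 35506018 to 35510772, GRCm38), the gene of Oct4, kept more of its transcript than its partners. Its libraries were at 1142, 1126 and 1709.5 FPKM in mES, where replicate 3 was the highest, and at 93.8, 95.9 and 98.3 in RA-4d (-3.75 ± 0.16, adjusted p = 1.58e-06). A share of 7.24% was left, beside 3.60% for Sox2, 0.162% for Nanog and 0.428% for Esrrb. Fgf4, the growth factor that Oct4 and Sox2 switch on together, was at 56.1, 56.8 and 63.1 in mES and 0, 0.0669 and 0.0373 in RA-4d. Prdm14, a naive regulator of DNA methylation, was at 8.88, 9.24 and 9.51 and listed at 0 in all 3 RA-4d libraries, which gives no fold. Utf1 (-6.50 ± 0.19) and the Nodal co-receptor gene Tdgf1 (-6.43 ± 0.16, not separable here from its pseudogene) fell as far as Klf2. Tcl1 (-4.65 ± 0.15), a cofactor of the kinase AKT, fell too, as did Nr0b1 (-5.24 ± 0.15), an orphan receptor that binds Oct4, and the adhesion gene Pecam1 (-4.01 ± 0.13). Of the 40 pluripotency members tested, 6 had under 1% of their mES mean left, 17 had 1 to 10%, 15 had 10 to 50%, and 2, Gbx2 and Tcf3, had 50% or more. Tcf3 is here the E protein gene rather than the repressor Tcf7l1, so it may not belong among these members.

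Several genes kept over 10% of their mES level. L1td1, an RNA-binding protein of stem cells, was at 155, 157 and 162 FPKM in mES and 41.1, 40.5 and 37.1 in RA-4d (25.1% left). Sall4, a zinc finger factor also used in endoderm, was at 50.6, 65.1 and 64.0 in mES and 21.2, 23.6 and 25.0 in RA-4d (38.8% left). Klf5 (42.8%) and Tbx3 (44.2%) were still above 40% of their mES means, with changes of -1.19 ± 0.073 and -1.14 ± 0.12. Klf4, in contrast, had 12.4% left (-2.97 ± 0.071), so that the 3 Kruppel-like factors of the naive network had fallen to different degrees. Gbx2 was not called (-0.13 ± 0.19, adjusted p = 0.566), nor was Tcf3 (0.18 ± 0.069), an E protein gene that is distinct from Tcf7l1, the repressor once given the same name. Zfp281 (-1.03 ± 0.10) lay at the threshold of the call and is not called without mES replicate 2 (-0.94), without RA-4d replicate 2, or with TMM-type scaling (-0.95). Dppa3 was below 1 FPKM in every library and was not tested.

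**Figure D2:**
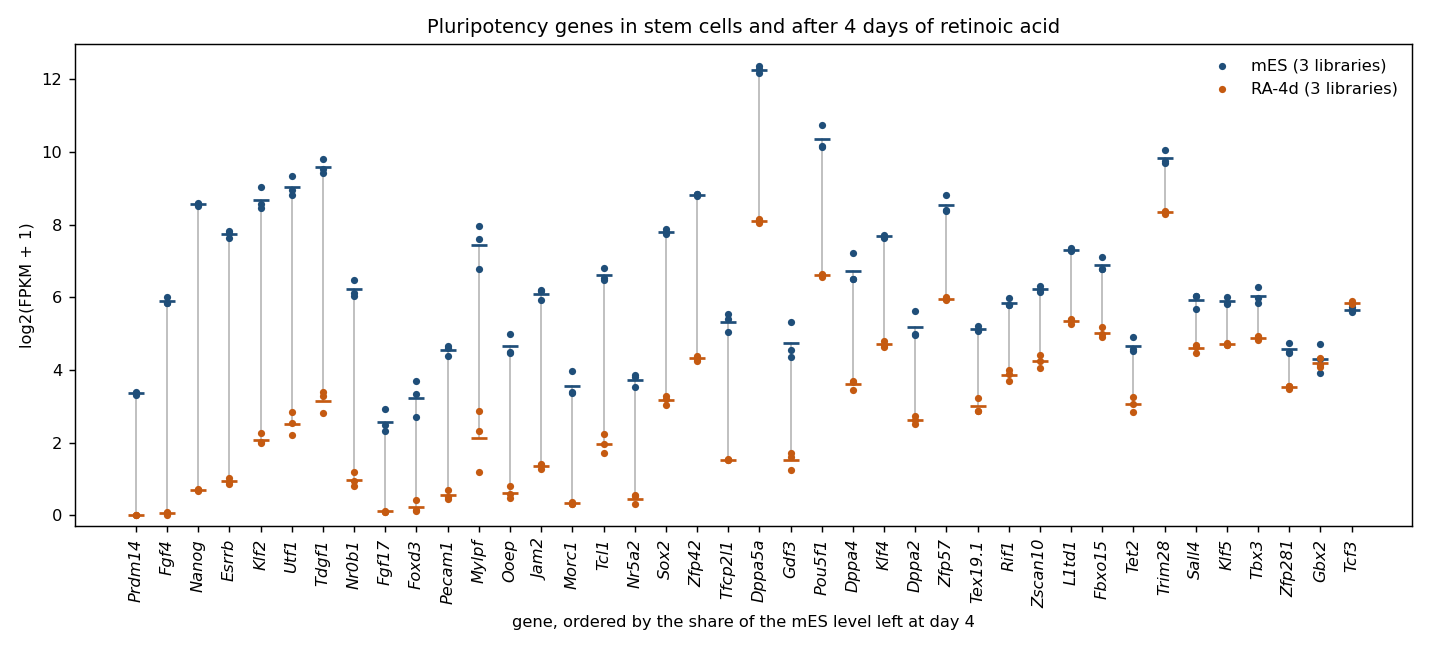
Level of each tested core and naive pluripotency gene as log2(FPKM + 1) in the 3 mES libraries (blue) and the 3 RA-4d libraries (orange), with short bars at the group means and genes ordered by the share of the mES level left. The share runs from 0% for Prdm14 and 0.162% for Nanog at the left to 88.8% for Gbx2 and 114% for Tcf3 at the right.

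The Lin28 axis, which keeps the let-7 microRNAs low in early cells, gave few calls, with shares of 16.7% higher and 8.33% lower beside 13.9% each way over all genes. Lin28a was at 47.3, 47.5 and 61.0 FPKM in mES and 63.9, 64.9 and 66.1 in RA-4d (0.33 ± 0.11, adjusted p = 0.0262, under the fold threshold). All RA-4d libraries lay above all mES libraries. Hmga2, a chromatin protein and let-7 target, rose from 5.04, 6.00 and 8.14 to 35.8, 39.5 and 40.4 (2.44 ± 0.15), and Arid3a rose too (1.41 ± 0.13). Trim71, another let-7 target, fell (-1.34 ± 0.094), so 2 of 12 members rose, 1 fell and 9 were not called.

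Signal inputs to the stem cell state moved unevenly. In the LIF pathway, 4 of 12 members rose and 2 fell (33.3% and 16.7%, beside 13.9% each way over all genes). The receptor genes were higher after 4 days: Lifr went from 11.3, 11.5 and 10.3 to 45.6, 45.6 and 45.4 FPKM (1.95 ± 0.073) and its partner Il6st from 14.0, 17.1 and 13.8 to 36.9, 37.1 and 40.3 (1.30 ± 0.10), with Jak2 (1.44 ± 0.11) and Lif itself (1.47 ± 0.18) also higher. The kinase genes Pim1 (-1.74 ± 0.11) and Pim3 (-1.95 ± 0.094), known STAT3 targets, fell. Stat3 (0.13 ± 0.10) and the feedback gene Socs3 (-0.51 ± 0.074) were not called. Klf4 and Tfcp2l1, naive factors that LIF maintains, fell as given above for Klf4 and by a log2 change of -3.80 ± 0.14 for Tfcp2l1.

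Genes of the FGF and ERK pathway fell in 11 of 18 tested cases and rose in 3 (61.1% and 16.7%, beside 13.9% each way over all genes). ERK is the kinase through which Fgf4 prompts stem cells to differentiate. Besides Fgf4, the ETS factors Etv4 (92.3, 99.5 and 137 against 0.337, 1.06 and 0.451 FPKM, -6.10 ± 0.21) and Etv5 (-4.93 ± 0.10) fell. So did the feedback inhibitor Spry4, at 25.4, 25.7 and 22.0 in mES and 0.0547, 0.0649 and 0.0241 in RA-4d (-4.59 ± 0.11), with Spry2 (-2.91 ± 0.19), the ERK phosphatase Dusp6 (-3.36 ± 0.11) and the immediate early factor Egr1 (-4.39 ± 0.13). The receptor genes Fgfr2 (3.32, 3.52 and 2.13 against 27.8, 28.3 and 26.2, 2.85 ± 0.15) and Fgfr3 (1.88 ± 0.19) rose, while Fgfr1 (-0.85 ± 0.089) was not called. For Spry4, Etv4, Etv5 and Egr1 no RA-4d library came near an mES library, though Etv4 was among the largest falls, chosen for no overlap.

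The Nodal pathway, which patterns the early embryo, lost its ligand and its secreted inhibitors. Nodal fell from 69.3, 61.6 and 102 to 0.755, 1.35 and 1.07 FPKM (-5.23 ± 0.20) and Lefty2 from 39.8, 38.4 and 50.5 to 0.460, 0.0452 and 0.101 (-5.20 ± 0.17). Lefty1 was at 58.8, 62.4 and 14.3 in mES, with replicate 3 far below the other 2, and at 3.76, 4.01 and 4.82 in RA-4d (-2.90 ± 0.51, and -3.57 without mES replicate 3). The nuclear cofactor Foxh1 (-2.57 ± 0.083) and the convertase Pcsk6 (-2.54 ± 0.14) fell as well. In all, 7 of 14 members fell and 3 rose. Of these 3, the signal carriers Smad2 and Smad3 are not called once the length trend is removed (0.87 and 0.96).

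Formative and primed genes were not higher as a group on day 4. Of 16 members, 13 were tested, 3 rose and 5 fell, with a median log2 fold change of -0.62. The shares were 23.1% higher and 38.5% lower, beside 13.9% each way over all genes. Fgf5, the usual marker of the primed state, was below 0.46 FPKM in all 6 libraries, and Lef1 and Fgf8 were also below 1. Otx2, a homeobox factor of the formative state, was at 6.01, 5.42 and 9.11 in mES and 0, 0.0579 and 0 in RA-4d (-2.92 ± 0.18), and Pou3f1 (Oct6) fell (-1.71 ± 0.13). Tcf15 fell further (-5.56 ± 0.22). Dnmt3b, a DNA methyltransferase gene, was at 15.0, 16.6 and 28.4 in mES and 16.3, 13.8 and 14.8 in RA-4d with overlapping libraries (-0.34 ± 0.22, adjusted p = 0.198). The members that rose were Sox4 (2.92 ± 0.11), the N-cadherin gene Cdh2 (0.475, 0.304 and 0.484 against 9.27, 8.89 and 9.29, 2.84 ± 0.11) and Sall2 (2.76 ± 0.11). A single sampling day cannot show whether formative genes rose and fell in between.

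The retinoid pathway held several of the largest rises, led by the enzymes that break retinoic acid down. Of 24 members 21 were tested, 14 rose and 2 fell, with a median log2 fold change of 2.33. Cyp26a1 (chromosome 19, 37697798 to 37701536, GRCm38), a cytochrome that degrades retinoic acid, went from 2.34, 1.69 and 2.28 FPKM in mES to 1057, 1047 and 990.1 in RA-4d (8.38 ± 0.096, adjusted p = 1.81e-08). It was the only gene tested to rise by 7 or more on the log2 scale. Rarb (chromosome 14, 16430839 to 16819156, GRCm38), the retinoic acid receptor beta, went from 0.0748, 1.06 and 0.0676 to 67.5, 64.4 and 66.6 (5.66 ± 0.25), and mES replicate 2 alone passed 1 FPKM among the stem cells. Their promoters are shown because both are textbook direct targets of the receptors and ranked among the 12 largest rises. The sequences are RefSeq windows of 300 bases (build GRCm38.p6), from 250 before to 50 after the start, at chr19:37697558-37697857 on the plus strand for Cyp26a1 and chr14:16575427-16575726 on the minus strand for Rarb. Capitals mark a DR5 motif, that is, 2 half-sites in the same direction with 5 bases between them, searched on both strands. The half-site forms accepted were AGGTCA as the consensus, with AGTTCA as its known variant in such elements. The 2 other forms were GGGTCA as a further allowed spelling of the consensus, and GGTTCA as the corresponding spelling of the variant.
Cyp26a1: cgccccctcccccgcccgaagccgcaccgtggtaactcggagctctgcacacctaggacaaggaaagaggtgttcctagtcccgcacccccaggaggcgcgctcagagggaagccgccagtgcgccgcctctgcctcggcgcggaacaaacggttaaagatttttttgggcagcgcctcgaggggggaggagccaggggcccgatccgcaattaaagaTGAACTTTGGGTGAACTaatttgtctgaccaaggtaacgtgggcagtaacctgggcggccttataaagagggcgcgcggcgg
Rarb: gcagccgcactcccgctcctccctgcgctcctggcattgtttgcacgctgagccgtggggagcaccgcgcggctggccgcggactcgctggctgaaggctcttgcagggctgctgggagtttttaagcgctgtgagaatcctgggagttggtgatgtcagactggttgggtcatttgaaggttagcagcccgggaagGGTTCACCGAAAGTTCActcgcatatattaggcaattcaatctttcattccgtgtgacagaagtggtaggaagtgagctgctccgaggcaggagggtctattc
The motif lies at bases -32 to -16 from the start in Cyp26a1, on the opposite strand, and at -53 to -37 in Rarb. Of 32851 promoter windows in the table, 32 (0.0974%) hold such a motif. Among the genes with a window, those that rose hold it in 2 of 1375 cases (0.145%), these 2 genes, and those that fell in 1 of 1325 (0.0755%). Of the 18 retinoid list members with a window these same 2 hold it, and of 22 Hox genes none does.

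The rest of the retinoid pathway can be read by role. Among the genes that move retinoids, the membrane receptor Stra6 rose from 1.10, 1.05 and 2.08 to 72.8, 67.7 and 67.9 FPKM (4.89 ± 0.16) and the plasma carrier Rbp4 from 3.85, 3.27 and 2.70 to 108, 109 and 109 (4.69 ± 0.11). The retinoic acid carrier Crabp2 rose (3.37 ± 0.064) while its paralog Crabp1 was lower but not called (-0.94 ± 0.079). Among the enzymes, Dhrs3, which returns retinal to retinol, went from 2.57, 4.45 and 1.88 to 179, 175 and 171 (5.52 ± 0.21). Rdh10, which acts the other way, rose less (2.14 ± 0.085). Cyp26b1 went from 0.461, 0.472 and 0.244 to 82.9, 82.4 and 84.3 (5.92 ± 0.099), and Cyp26c1 from 0, 0.247 and 0.134 to 6.44, 4.71 and 3.25 (2.33 ± 0.22). Aldh1a2, the main enzyme of retinoic acid synthesis in the embryo, rose from 0.369, 0.426 and 0.920 to 15.9, 16.6 and 16.4 (3.48 ± 0.15), and Aldh1a1 was listed at 0 in mES and stood at 4.23, 5.29 and 5.82 in RA-4d.

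Among the other receptor genes, 3 showed small differences and Rarg was lower. Rara was at 19.3, 19.04 and 20.7 FPKM in mES and 18.4, 19.07 and 19.5 in RA-4d (-0.050 ± 0.074), Rxra changed by 0.14 ± 0.088 and Rxrb by 0.091 ± 0.073, none of them called. Rarg fell by 1.02 on the log2 scale, but mES replicate 3 was far above the other libraries of its group (36.9, 36.0 and 69.4), and without it the change is -0.71, under the fold threshold (adjusted p = 0.000147). Stra8, a germ cell gene named for its response to retinoic acid, rose (1.73 ± 0.17). Tgm2 was not called (-0.44 ± 0.19), and Cdx1, a caudal homeobox gene, fell at low levels (3.58, 2.39 and 3.44 against 0.487, 0.455 and 0.252, -1.56 ± 0.16). Nrip1, a receptor corepressor, lay at the threshold (1.01 ± 0.13) and was lost under several alternatives, for instance without mES replicate 3 (0.92).

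**Figure D3:**
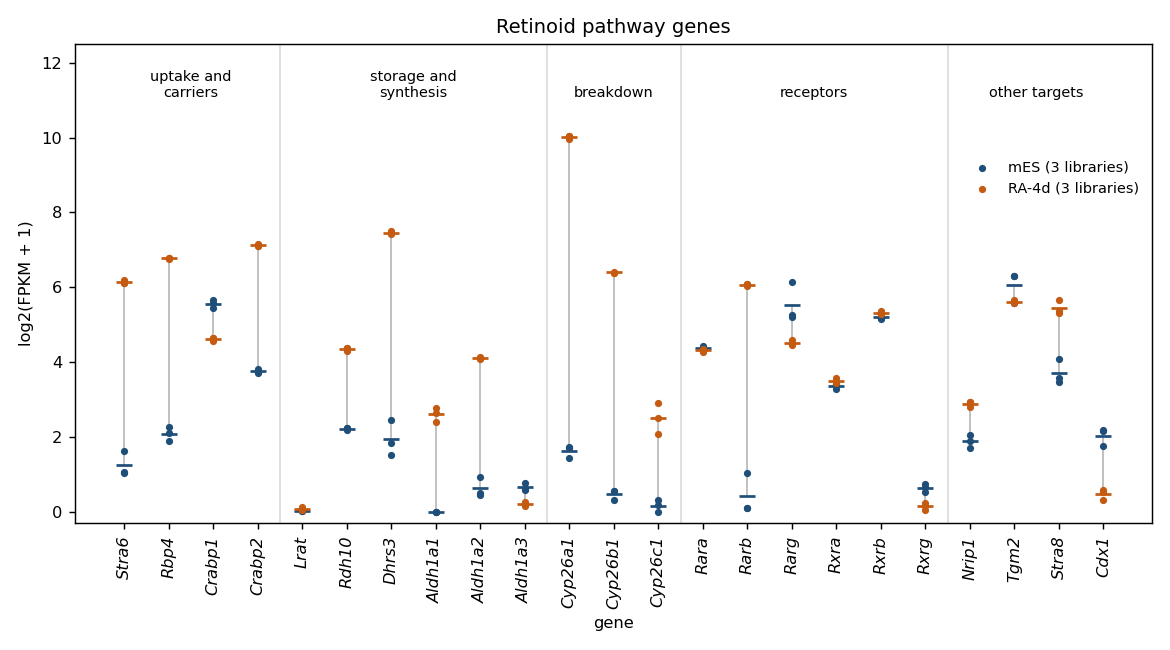
Levels of retinoid pathway genes as log2(FPKM + 1) in the 3 mES libraries (blue) and the 3 RA-4d libraries (orange), grouped by role, with bars at the group means. Cyp26a1 reaches 990.1 to 1057 FPKM in RA-4d, Rarb is the receptor gene that rises, and Rara, Rxra and Rxrb have nearly the same level in both groups.

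Nuclear receptors tied to Pou5f1 moved in opposite directions, 4 of 11 higher and 3 lower (36.4% and 27.3%, beside 13.9% each way over all genes). The orphan receptors Nr2f1 (COUP-TF1), at 0.0483, 0.0451 and 0.0458 in mES and 25.4, 18.96 and 23.8 in RA-4d (4.49 ± 0.13), and Nr2f2, at 0.0545, 0.0502 and 0.194 in mES and 36.7, 34.9 and 35.7 in RA-4d (5.07 ± 0.10), rose from almost nothing. They are known to bind the Pou5f1 promoter as repressors. Nr6a1 (GCNF), another known repressor of Pou5f1 under retinoic acid, went from 6.02, 6.34 and 7.06 to 13.9, 14.8 and 14.0 (1.03 ± 0.093). It lies near the threshold and is not called without mES replicate 1 (0.99) or with the length trend removed (0.87). Nr5a2, which activates Pou5f1, fell from 12.99, 13.4 and 10.6 to 0.466, 0.432 and 0.241 (-3.27 ± 0.14), beside Esrrb and Nr0b1.

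Hox genes, which encode position along the body axis, rose in all 4 clusters. Of 39 members 31 passed the filter on low values, 28 rose and none fell. Only 4 of the 31 reached 1 FPKM in any mES library, so most passed through RA-4d alone. Such a gene had to differ, here and in the other lists with members near 0 in mES, and these counts are a description. Their summed level was 17.6 to 20.5 FPKM in the mES libraries and 538.4 to 553.5 in the RA-4d libraries. Hoxa5 (chromosome 6, 52201754 to 52204587, GRCm38) was the highest, at 0.691, 0.353 and 0.510 in mES and 107, 109 and 107 in RA-4d (6.17 ± 0.10, adjusted p = 5.53e-08). Hoxb1, a direct retinoid target at the 3′ end of its cluster, was listed at 0 in all mES libraries and stood at 15.9, 16.0 and 12.8 in RA-4d. Hoxb2 went from 0.0941, 0.651 and 0 to 58.3, 60.6 and 55.2 (5.60 ± 0.19).

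Within a cluster, levels did not simply fall from the 3′ to the 5′ end. In the A cluster the mean RA-4d level was 8.57 FPKM for Hoxa2, 26.6 for Hoxa3, 31.7 for Hoxa4, 107.8 for Hoxa5, and 0.45 for Hoxa6, which did not pass the filter. The SD over 3 libraries was at most 1.31 for these genes, smaller than the step between any neighbours in this order. However, the annotated span of Hoxa3 (52169062 to 52213336) covers Hoxa4, Hoxa5 and Hoxa6 on the same strand. How shared reads were split among these genes is unknown, and the SD does not measure it, so the steps may partly reflect that split. In the B cluster the members 1 to 9 all rose, with mean RA-4d levels from 6.21 (Hoxb7) to 58.0 (Hoxb2). Hoxb13, which lies apart from the rest of its cluster and is a gene of the tail end, was at 0.317, 0.243 and 0.303 in mES and 13.6, 13.9 and 12.6 in RA-4d (3.48 ± 0.11). In the C cluster Hoxc4 (3.88 ± 0.12) and Hoxc5 (3.78 ± 0.14) led, and in the D cluster no member passed 6.61 FPKM in a library. Of the 16 genes with paralog numbers 9 to 13, 6 rose: Hoxa9, Hoxa10, Hoxb9, Hoxb13, Hoxc9 and Hoxd9.

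Noncoding transcripts of the same loci rose with them. Hotairm1, in the A cluster, was at 0.711, 0 and 0 in mES and 60.5, 76.2 and 128 in RA-4d, with RA-4d replicate 3 the highest (6.15 ± 0.31). Hoxb5os was listed at 0 in mES and stood at 60.9, 60.2 and 60.3 in RA-4d. Strand is not stated to enter the FPKM, and reads of these genes and of their Hox neighbours cannot be told apart. The cofactors that bind DNA with Hox proteins rose in 5 of 9 cases, with Meis2 from 0.201, 0.194 and 0.948 to 58.3, 61.0 and 60.0 (5.43 ± 0.19), Meis1 (5.03 ± 0.12) and Meis3 (2.84 ± 0.14), and none fell. Pbx4 was lower but not called (-0.85 ± 0.25), and is called without mES replicate 3 (-1.14).

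**Figure D4:**
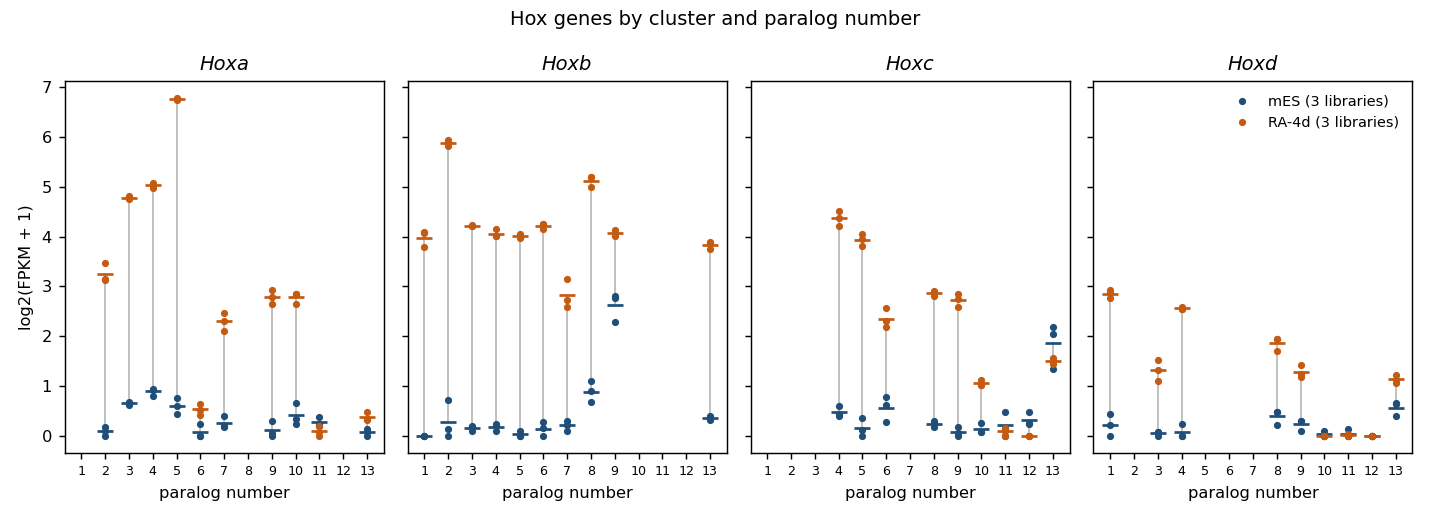
Hox genes of the 4 clusters by paralog number (1 at the 3′ end), as log2(FPKM + 1) in the 3 mES libraries (blue) and the 3 RA-4d libraries (orange), with bars at the group means. Hoxa5 is the highest gene shown in RA-4d, Hoxa6 stays below 1 FPKM between higher neighbours, and the D cluster stays low.

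Genes of extraembryonic endoderm rose together, in the lists of regulators and of basement membrane genes alike. Of the endoderm factors 12 of 15 were tested, 11 rose and 1 fell, with a median log2 fold change of 2.98. Gata4 (chromosome 14, 63198922 to 63271692, GRCm38), a zinc finger factor of primitive endoderm, went from 7.76, 9.66 and 12.9 to 133, 134 and 129 FPKM (3.61 ± 0.16, adjusted p = 1.69e-06), and Gata6 from 7.28, 10.1 and 11.3 to 93.8, 91.4 and 96.8 (3.19 ± 0.14). Sox17 (7.09, 7.74 and 11.4 against 71.1, 72.9 and 72.8, 2.94 ± 0.15), Sox7 (1.99, 2.06 and 3.47 against 27.6, 30.8 and 29.9, 3.14 ± 0.17) and Foxa2 (2.41, 3.54 and 3.00 against 41.0, 36.9 and 39.5, 3.34 ± 0.12) followed. The mES libraries were not at 0 for these genes, and replicate 3 was highest in mES for Gata4, Gata6, Sox17 and Sox7. Foxa1 rose (3.03 ± 0.14), and Hhex, a gene of anterior and visceral endoderm, fell (-1.19 ± 0.12). Gsc, Foxa3 and Pdx1, genes of definitive endoderm and pancreas, stayed below 1 FPKM.

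The basement membrane genes reached high levels. Of 19 members, 17 rose and none fell (median 3.37), and their summed level went from 954.6 to 1217 FPKM in mES to 9967 to 10188 in RA-4d. Col4a1 was at 70.1, 77.5 and 88.3 in mES and 1411, 1444 and 1485 in RA-4d (4.19 ± 0.095), and Col4a2, the second chain of the same collagen, at 43.0, 46.2 and 52.1 in mES and 850.2, 883 and 906 in RA-4d (4.20 ± 0.085). The laminin genes Lamb1 (3.51 ± 0.076), Lama1 (3.51 ± 0.078) and Lamc1 (2.53 ± 0.12) rose, with Sparc (219, 204 and 286 against 2734, 2802 and 2651, 3.54 ± 0.13) and the collagen chaperone Serpinh1 (3.37 ± 0.086). Plat, the tissue plasminogen activator and a marker of parietal endoderm, went from 1.92, 1.61 and 2.95 to 129, 137 and 133 (5.42 ± 0.15), and the parathyroid hormone receptor gene Pth1r from 5.17, 4.35 and 8.60 to 119, 132 and 125 (4.21 ± 0.20). Nid1 (0.94 ± 0.082) and Thbd (0.87 ± 0.21) were not called, and Thbd is called without mES replicate 3 (1.08) and with a pseudocount of 0.1 (1.61). Keratin genes of simple epithelia rose as steeply, Krt18 from 12.7, 11.7 and 11.9 to 504, 501 and 508 (5.27 ± 0.062) and Krt8 from 21.8, 21.4 and 33.4 to 530.0, 513 and 511 (4.32 ± 0.16). Bulk values do not say whether the same cells hold these transcripts and those of the basement membrane genes.

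Of the 23 visceral endoderm genes 17 were tested, 12 rose and 2 fell (70.6% and 11.8%, beside 13.9% each way over all genes, median 1.83). Ttr, the thyroxine carrier, went from 0.228, 0.210 and 0 to 23.3, 25.9 and 21.8 (4.43 ± 0.13), and the endocytic genes Dab2 (16.3, 19.5 and 33.6 against 165, 157 and 169, 2.84 ± 0.23) and Cubn (2.79 ± 0.23) rose. Apoa1 reached 11.3, 10.6 and 8.54 (2.77 ± 0.20). Afp, the classic marker of the mature tissue, was at 0.667, 0.856 and 3.04 in RA-4d and at or near 0 in mES, and did not pass the filter. Alb and Cer1 were listed at 0 in all 6 libraries. Apoe (1122, 1078 and 924 against 305, 307 and 294, -1.78 ± 0.093) and the transferrin gene Trf (-1.39 ± 0.20) fell. Set beside the extraembryonic endoderm cells of the series (XEN, n = 3), RA-4d stood at 132.0 ± 2.29 FPKM (mean ± SD) against 246.0 ± 2.81 for Gata4, 94.0 ± 2.68 against 43.5 ± 1.98 for Gata6 and 72.3 ± 0.99 against 189.1 ± 16.7 for Sox17. For Lama1 the levels were 384.3 ± 12.2 against 358.4 ± 20.9, with overlapping libraries, and for Col4a1 1447 ± 37.3 against 1183 ± 51.6.

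**Figure D5:**
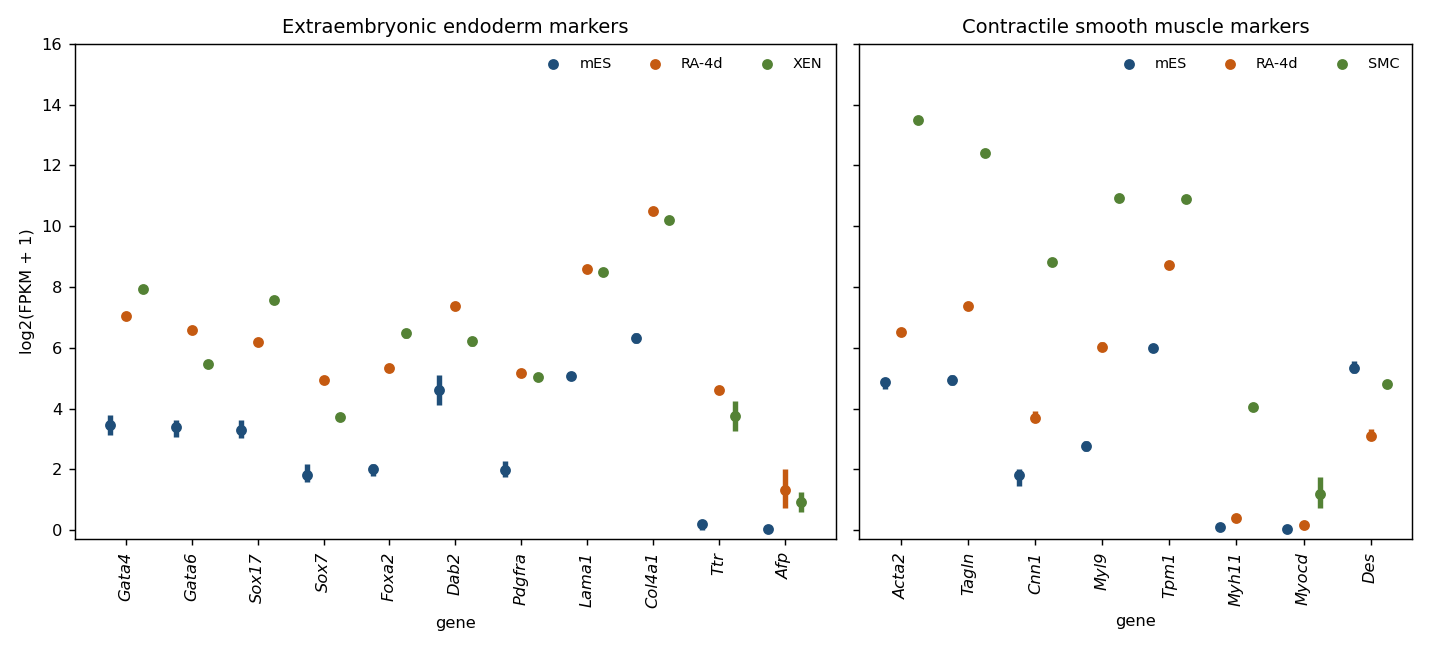
Extraembryonic endoderm markers (left, with the XEN cells) and contractile smooth muscle markers (right, with the SMC cells) as log2(FPKM + 1), with dots at the group means and vertical lines from the lowest to the highest of 3 libraries. The RA-4d means of Lama1 and Col4a1 lie close to those of XEN, while RA-4d lies far below SMC for Acta2, Cnn1 and Myh11.

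Contractile smooth muscle genes, which the label of the treated cells names, rose in part. Of 20 members 15 were tested, 11 rose and 1 fell (73.3% and 6.67%, beside 13.9% each way over all genes). Acta2, the smooth muscle actin, went from 29.8, 24.1 and 30.4 to 88.2, 91.7 and 90.2 FPKM (1.65 ± 0.098), beside 11435 ± 138.2 (SD) in the smooth muscle cells of the series (SMC, n = 3). Tagln (30.5, 26.1 and 33.2 against 166, 167 and 162, 2.43 ± 0.093), Tpm1 (2.75 ± 0.058) and Myl9 (3.26 ± 0.11) rose more, and Cnn1, the contractile protein calponin, rose from 3.04, 1.72 and 2.77 to 10.8, 14.0 and 11.2 (1.90 ± 0.18). Lmod1, which builds actin filaments in smooth muscle, rose at low levels (0.332, 0.274 and 0.356 against 2.28, 2.15 and 2.43, 1.31 ± 0.11). Acta2, Tagln, Tpm1 and Myl9 are also active in other spreading cells. Myh11, the smooth muscle myosin, stayed at 0.262, 0.297 and 0.409 in RA-4d, and its coactivator gene Myocd at 0.150, 0.105 and 0.0971; neither was tested. Des fell (37.9, 46.0 and 34.6 against 6.87, 9.06 and 6.72, -2.24 ± 0.14).

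Other lineages gave partial signals. Of 19 mesoderm genes 9 were tested and 8 rose (88.9%, beside 13.9% each way over all genes). Most of the 9 were below 1 FPKM in every mES library and passed the filter through RA-4d alone. Such genes had to be higher in RA-4d, so this count is a description. The largest rises were those of the forkhead genes Foxf1 (0.115, 0.157 and 0.110 against 26.6, 28.1 and 25.2, 4.61 ± 0.10) and Foxc2 (3.60 ± 0.12), of Wt1 (0.0876, 0.122 and 0.248 against 12.4, 13.8 and 13.2, 3.62 ± 0.11) and of Pdgfra (3.21 ± 0.14), which also marks primitive endoderm. The markers of the primitive streak did not follow: T, Mixl1, Mesp1 and Msgn1 were below 1 FPKM in all 6 libraries. Of 23 neural genes 12 were tested, 5 rose and 5 fell (41.7% each). Irx3 (0.336, 0.302 and 0.101 against 14.7, 14.0 and 15.3, 3.66 ± 0.12) and Pax6 (0.520, 1.18 and 1.45 against 8.07, 8.35 and 8.25, 2.20 ± 0.18) rose, while Sox1, the earliest neural Sox gene, was lower (-1.01 ± 0.11) and close to the threshold, and it is not called with TMM-type scaling (-0.94) or without mES replicate 1, mES replicate 2 or RA-4d replicate 3. Stmn2, a growth-associated protein gene of neurons, was at 113, 114 and 181 in mES and 1.06, 1.03 and 0.830 in RA-4d (-6.09 ± 0.18). Olig2, Dcx and Pax3 stayed below 1 FPKM. Of the trophoblast list 11 of 17 were tested, 6 rose (54.5%, with Gata3 3.40 ± 0.12 and Rhox6 2.66 ± 0.22) and 4 fell (36.4%, with Tfap2c -2.17 ± 0.13 and Eomes -1.26 ± 0.19). Cdx2, the defining factor of trophoblast, was at 1.73, 0.982 and 0.963 FPKM in RA-4d and not tested.

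Markers of fibroblasts were examined because the mES cells grew on feeders. Of 24 markers 18 were tested, 5 fell and 3 rose, and their summed level was 98.0 to 132.1 FPKM in mES and 74.6 to 80.1 in RA-4d. The shares were 27.8% lower and 16.7% higher, beside 13.9% each way over all genes. Thy1 (13.5, 13.1 and 24.2 against 0.914, 0.824 and 0.729, -3.25 ± 0.23), S100a4 (-3.87 ± 0.38), Postn (-1.50 ± 0.26), Col1a2 (-1.46 ± 0.16) and Lox (-1.44 ± 0.19) fell. Col3a1 (2.67 ± 0.20), Twist1 (2.06 ± 0.22) and Dcn (1.38 ± 0.16) rose. Col1a1 was at 8.43, 9.01 and 12.8 in mES and 5.02, 5.19 and 5.26 in RA-4d (-0.83 ± 0.15, not called), and Lum, Fap and Mmp3 were below 0.17 in all 6 libraries. The part of feeder RNA in the falls was not tested.

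Most BMP pathway genes that changed were higher. The inhibitors of differentiation Id3 (13.6, 16.3 and 21.5 against 325, 329.6 and 319 FPKM, 4.19 ± 0.15), Id2 (3.03 ± 0.073) and Id1 (2.03 ± 0.23), known targets of BMP, rose, with the inhibitory Smad6 (2.64 ± 0.25) and the homeobox genes Msx1 (2.60 ± 0.15) and Msx2 (2.12 ± 0.15). Of 20 members 19 were tested, 11 rose and 3 fell. The ligand genes split, since Bmp2 (2.50 ± 0.11) and Bmp6 (1.59 ± 0.20) rose while Bmp4 fell (19.3, 20.3 and 25.2 against 3.30, 3.92 and 4.62, -2.19 ± 0.14). Wnt targets and feedback genes gave 3 higher and 4 lower of 13 tested (23.1% and 30.8%, beside 13.9% each way over all genes). Axin2, the standard readout of the pathway, was at 3.12, 3.22 and 3.40 in mES and 2.50, 2.40 and 2.67 in RA-4d (-0.27 ± 0.11, not called), Sfrp5, a secreted Wnt inhibitor, rose (3.69 ± 0.11), and Notum (-2.51 ± 0.18) and Wnt6 (-2.22 ± 0.23) fell.

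Adhesion genes changed in part. The E-cadherin gene Cdh1 fell from 83.8, 98.3 and 67.9 to 33.1, 34.3 and 33.5 FPKM (-1.27 ± 0.13) but stayed above Cdh2, and Epcam was not called (-0.64 ± 0.077). Krt19 (4.50 ± 0.31), Cldn6 (2.23 ± 0.065), Cldn7 (2.08 ± 0.086) and the splicing regulator gene Esrp2 (1.85 ± 0.15) of epithelia rose. Of mesenchymal regulators, Snai1 rose (5.85, 4.37 and 9.39 against 69.0, 64.0 and 66.5, 3.22 ± 0.22), Snai2 rose at low levels (1.29 ± 0.15), and Zeb1 was not called (0.081 ± 0.19). Vim was higher but under the fold threshold (0.83 ± 0.087), and Fn1 fell (187, 177 and 154 against 73.4, 75.9 and 73.9, -1.20 ± 0.083, under quantile normalization -0.98 and not called).

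Imprinted genes rose in 16 of 21 cases and fell in 1, with a median of 1.73. Igf2, a fetal growth factor, went from 8.56, 8.63 and 9.63 to 262, 257 and 256 FPKM (4.71 ± 0.069) and H19, the noncoding RNA next to it, from 20.9, 19.6 and 24.2 to 442, 440.4 and 449.9 (4.31 ± 0.085). Dlk1 (4.85 ± 0.12), Peg3 (4.65 ± 0.10), Plagl1 (4.15 ± 0.11) and Mest (3.20 ± 0.16) rose too. Meg3 (108, 118 and 139.8 against 478, 440.2 and 459, 1.91 ± 0.10) and Rian (1.73 ± 0.12), the noncoding RNAs of the Dlk1 region, rose less and were already high in mES. Phlda2, a growth-restraining gene, fell (85.6, 76.2 and 98.2 against 8.16, 4.90 and 2.32, -3.95 ± 0.33). These are totals over both alleles.

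Several chromatin regulators of stem cells were lower. Tet1, which oxidises methylated cytosine, fell from 25.1, 28.4 and 25.7 to 2.52, 1.70 and 1.92 FPKM (-3.18 ± 0.12) and Tet2 by 1.60 on the log2 scale, while Tet3 rose (1.34 ± 0.12). The cofactor Dnmt3l (-1.46 ± 0.34), with mES replicate 3 far above the others (83.6, 74.6 and 203, and -1.01 without it), the maintenance factor Uhrf1 (-1.46 ± 0.066) and Zfp57, which guards imprints (-2.57 ± 0.12), fell. Of 14 DNA methylation genes tested, 5 fell and 2 rose, of which Mbd2 (1.04 ± 0.083) is not called without mES replicate 3 (0.98). The shares were 35.7% lower and 14.3% higher, beside 13.9% each way over all genes. In polycomb, the repressor complexes of developmental genes, the subunits Eed (-1.68 ± 0.12), Ezh2 (-1.24 ± 0.071) and Suz12 (-1.13 ± 0.083) fell with Mtf2 (-1.55 ± 0.061) and Jarid2 (-1.16 ± 0.094), and Cbx8 (2.02 ± 0.25) and Bmi1 (1.66 ± 0.12) rose. Germline genes fell in 7 of 12 tested cases (Sycp3 -3.14 ± 0.21, Dazl -2.16 ± 0.11) while Rec8, a meiotic cohesin, rose (20.2, 17.7 and 13.6 against 140.0, 130.5 and 148, 2.96 ± 0.14). None of the 10 tested genes of the 2-cell-like state was called by limma, but 2 are called under some alternatives. Zscan4d (0.94 ± 0.13) and Tcstv3 (0.78 ± 0.26) are called without mES replicate 3 (1.02 and 1.07) and with a pseudocount of 0.1 (1.01 and 1.06), Zscan4d with TMM-type scaling (1.02) and Tcstv3 with the length trend removed (1.11). Zscan4d has near-identical copies, such as Zscan4c (-0.18 ± 0.10), that may share reads. At an unadjusted p under 0.05, 5 of the 10 passed, beside 71.7% of all tested genes.

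Cell cycle genes fell in 14 of 31 cases and rose in 5, and the directions had different members. The replication licensing genes fell, Mcm3 from 247, 217 and 265 to 73.7, 63.8 and 63.0 FPKM (-1.84 ± 0.099) with Mcm5 (-1.61 ± 0.096) and Pcna (-1.59 ± 0.094). The G1 cyclin genes Ccnd1 (-2.04 ± 0.11), Ccne1 (-1.91 ± 0.10) and Ccnd3 (-1.67 ± 0.11) fell, while Ccnd2 rose (1.45, 1.48 and 1.71 against 24.6, 25.3 and 25.4, 3.36 ± 0.093). The inhibitors Cdkn2b (2.35, 2.25 and 2.74 against 30.6, 24.3 and 26.4, 3.02 ± 0.12), Cdkn1c (2.71 ± 0.11), Cdkn2a (1.25 ± 0.076) and Cdkn2c (1.20 ± 0.12) rose. Cdk1 (-0.35 ± 0.090) and Mki67 (-0.43 ± 0.075), which mark dividing cells, were lower but under the fold threshold. The cyclin gene Ccnb1 was called lower, but not with TMM-type scaling (-0.97) or under quantile normalization (-0.83). Trp53, the gene of p53, fell from 270.2, 261 and 291 to 84.0, 85.7 and 82.0 (-1.70 ± 0.068), the death gene Pmaip1 fell (-2.76 ± 0.078), and the survival gene Bcl2l1 rose (1.40 ± 0.093), among 3 of 14 genes of p53 and cell death that rose and 4 that fell. Of 11 tested genes of antigen presentation 2 rose, B2m (2.54 ± 0.16), the light chain of class I molecules, and Tapbp (1.62 ± 0.12), and 2 fell, Bst2 (-1.63 ± 0.13) and Psmb9 (-1.08 ± 0.14). The shares were 21.4% higher and 28.6% lower for p53 and cell death, and 18.2% each way for antigen presentation. Over all genes 13.9% were called each way.

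Glycolysis genes fell in 8 of 21 cases (38.1%, beside 13.9% over all genes) and rose in none (median -0.83). Pfkp, an isoform of phosphofructokinase, went from 70.6, 73.2 and 147 to 6.55, 7.27 and 7.54 FPKM (-3.51 ± 0.26), Aldoc (-2.82 ± 0.094) and Pdk1 (-2.46 ± 0.14) fell, and so did Ldhb (-1.79 ± 0.13), Hk1 (-1.61 ± 0.078) and Pkm (1469, 1452 and 2268 against 655, 666 and 663, -1.35 ± 0.17). Replicate 3 was the highest mES library for Pfkp and Pkm. Without it 7 of the 21 fell (median -0.71), with the length trend removed 9 (median -0.78), and under quantile normalization 5, with Pkm (-0.95) no longer called. Of the 13 protein-coding genes of the mitochondrial genome, 12 were not called; mt-Nd2 was lower (-1.04 ± 0.12) and lost its call with TMM-type scaling (-0.95), under quantile normalization (-0.56), with the length trend removed (-0.79) and without mES replicate 2 (-0.99).

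Later libraries of the same arm place the day 4 values, as levels without a test, the last from after a change to medium with 10% serum for which no retinoic acid is listed. On days 7, 10 and 16 Nanog was at 0.32, 0.41 and 0.64 FPKM, so its day 4 mean of 0.61 was already within the range it kept. Pou5f1 was at 36.8, 10.5 and 4.31 on these days, below its day 4 mean of 96.0, with SDs from 1.03 to 2.24 over these groups of 3. Lin28a, at 65.0 on day 4, was at 10.8, 2.84 and 1.47. Cyp26a1 was highest on day 4, at 1031, and then at 397.1, 177.2 and 91.5. Lama1 was at 384.3 on day 4 and at 84.9, 16.5 and 94.3 later, and Acta2 at 90.0 on day 4 and at 595.1, 469.2 and 3683.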

How the data were processed

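Poly(A) RNA was sequenced as 150 bp paired reads, to about 25M reads per library, per the labels' protocols. The deposited table holds FPKM per gene, for 52631 genes and 33 libraries. Per the submitters' processing notes, Trimmomatic 0.33, HISAT2 2.0.4, Cufflinks and Cuffdiff were used with build GRCm38. FPKM keep no counts, so no counting error can be given.

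Genes at 1 FPKM or more in 3 of the 6 libraries (13617) were fitted as log2(FPKM + 1), with a pseudocount of 1, by limma 3.58.1 with a variance trend in R 4.3.3, on the 6 libraries alone. Fold changes are RA-4d minus mES ± SE on this scale, which understates the change of low genes, and p-values were Benjamini-Hochberg adjusted over all tested genes. The fit was tested on simulated data. A value of 0 can be a failed estimate. Named were the 12 largest called rises and falls with a group mean of 5 FPKM or more and no overlap between groups, and members of 32 lists. Predicted genes, clone names, pseudogenes and genes sharing a symbol were passed over in this ranking. The members and lists were chosen with earlier results of these data known. Gene positions are from GENCODE M21 (GRCm38), and promoters from RefSeq. Scaling, pseudocount, filter, sample choice, replicate block and leaving out each library were tried as alternatives, and removal of the length trend was added after the data were seen. Some genes are not reported here.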

Additional observations from a re-analysis of the deposited data

How the results depend on the processing

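No gene named for its change or called in a list changed direction under any alternative tried. The 3781 called genes became 9438 (4348 higher, 5090 lower) with no minimum fold change, under which 16 glycolysis genes were lower, against 5 under quantile normalization and 8 as reported. The count was 4533 with a pseudocount of 0.1, 2679 with a filter of 5 FPKM, and 3681 with the length trend removed. TMM-type scaling gave 2054 higher and 1682 lower. Leaving out each library in turn gave 3756 to 3827 called genes. Of 336 called genes that were list members or named by rule, 329 kept the call with TMM-type scaling and 324 under quantile normalization. With the filter of 5 FPKM, 283 of them were tested. The genes named below outside the lists were not part of this set.

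Replicate numbers do not pair the libraries: deviations of same-numbered mES and RA-4d libraries correlated at -0.046, -0.017 and 0.027. A fit with the replicate number as a block gave 3786 called genes. Depth is unknown, so for genes listed near 0 FPKM a difference may not be detectable.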

Other observations

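Genes outside the lists, chosen after their values were seen, included abundant secreted proteins. Ecm1, an extracellular matrix protein, was at 21.3, 15.7 and 18.8 FPKM in mES and 748, 684 and 721 in RA-4d (5.21 ± 0.11). Mdk, the growth factor midkine, a known retinoic acid response gene, was at 373, 329 and 425 in mES and 2601, 2458 and 2398 in RA-4d (2.73 ± 0.11). The chaperone Clu (3.98 ± 0.058), the peroxidase Gpx3 (4.10 ± 0.13) and the calcium-binding S100g (3.32, 4.32 and 3.66 against 195, 191 and 143, 5.21 ± 0.14) were also higher. Among abundant stem cell transcripts, Chchd10 was at 1011, 1069 and 950.0 in mES and 32.4, 20.4 and 22.4 in RA-4d (-5.30 ± 0.16), Igfbp2 changed by -3.40 ± 0.064, and the metallothioneins Mt2 (-3.08 ± 0.082) and Mt1 (-2.02 ± 0.14) were lower. For each of these genes the 3 and 3 libraries did not overlap, but the genes were chosen with these values seen. The same held for 73.7% of all tested genes.

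Families also chosen after values were seen moved in either direction. Their counts, and those of the X chromosome below, stand beside 13.9% of all tested genes called higher and 13.9% lower. Of 82 genes of cytosolic ribosomal proteins, 17 were lower and 0 higher (median log2 fold change -0.76). Their transcripts are short, and without mES replicate 3 the median was -0.63 with 14 lower, and with the length trend removed -0.53 with 10 lower. Of 34 replication-type histone genes, 12 were lower (median -0.80), 10 (median -0.51) without mES replicate 3 and 9 (median -0.38) with the length trend removed. Their summed level was low, at 248.1, 183.6 and 406.7 FPKM in mES and 124.0, 88.9 and 115.6 in RA-4d. The libraries were made from poly(A) RNA, so histone transcripts without a poly(A) tail are not measured, and these values may not show total histone RNA. Cathepsin and cystatin genes, of lysosomal proteases and their inhibitors, were higher in 7 of 11 cases and lower in 1 (median 1.25), and protocadherins higher in 8 of 15 (median 1.0). With the length trend removed 6 protocadherins were higher (median 0.92), and 8 cathepsin and cystatin genes (median 1.26). On the X chromosome 94 of 446 tested genes were higher and 44 lower (median 0.18), while autosome medians ran from -0.14 to 0.022.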
